A study of Mus musculus with 16 samples.

Results

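Nuclear receptors are transcription factors whose activity is set by small lipophilic ligands such as fatty acids, oxysterols, bile acids, thyroid hormone, retinoids and steroids. A list of 34 receptor genes, chosen by gene symbol and without the clock receptors, was followed among the 25803 genes of a liver RNA sequencing study. The data are 16 bulk libraries, 4 in each of 4 groups, from livers of male mice that had eaten a high-fat diet for 12 weeks. Fasted control and fasted LKO mice had been without food for 16 h at necropsy, and refed control and refed LKO mice had the same 16 h fast and then 6 h of food. LKO denotes a liver knockout of Cpt1a, which encodes carnitine palmitoyltransferase 1A, the enzyme that admits long-chain fatty acids to mitochondria for oxidation. All groups shared the diet and the sex, and strain, age, the means of deletion and the genotype of the control mice are not given in the sources used here. Nothing in the labels says whether the libraries of a group came from separate litters or cages, so the p-values measure the spread between these libraries.

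Many of these receptors act as heterodimers with a retinoid X receptor (RXR), and those for fatty acids (PPARs), oxysterols (LXRs), bile acids (FXR), thyroid hormone (TRs) and retinoic acid (RARs) bind DNA in that form. Receptors that can act without an RXR, as homodimers or monomers, include HNF4A, which maintains hepatocyte gene expression, and orphan receptors of the NR2, ERR, NR4A and NR6 groups. Corepressors such as NCOR1 and coactivators such as CREBBP and EP300 carry the receptor's output to chromatin. The mRNA of a receptor is only 1 part of its activity, which also depends on ligand and on these partners.

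Total counts ran from 14721601 to 24618230 per library. Values are given as CPM, counts scaled to library size after TMM normalization, and differences as log2 fold changes with a standard error (SE) from edgeR's quasi-likelihood fit over 14488 genes. Calls were made where the p adjusted by Benjamini-Hochberg over all of those genes was under 0.05. Cpt1a itself stood at 487 ± 83.2 CPM in fasted control against 101 ± 17.3 in fasted LKO livers, and at 457 ± 137 against 54.2 ± 16.6 in refed livers (SD, n = 4), with no overlap in either state (exact two-sided permutation p = 0.0286 in each, the smallest that 4 against 4 libraries allow). Summed over 8 hepatocyte markers, the level ran from 74016 to 81369 CPM in fasted control and from 63237 to 71757 in fasted LKO libraries, which did not overlap. After refeeding that sum ran from 71858 to 89864 in control and from 64029 to 78272 in LKO libraries. Marker sums of stellate cells (9 of 9 markers tested), endothelial cells (8 of 8), macrophages (8 of 8), cholangiocytes (5 of 6) and lymphocytes (5 of 6) overlapped between the groups of every comparison. The 5 adipocyte markers summed to between 9.81 and 58.1 CPM in fasted control and between 0.448 and 9.63 CPM in fasted LKO libraries, and Lep was at 0 in every library of the other three groups. Cfd made up nearly all of that sum, and Adipoq was at 0.447 CPM or less in every library. The fasted LKO library S44 stood apart in bile duct keratins, with Krt19 at 29.0 CPM against 0.850 to 2.22 in the other libraries and Krt7 at 4.59 CPM against 0.117 to 1.66. Epcam was at 7.89 CPM there against 0.756 to 2.33 CPM elsewhere. Without S44, 2 receptors were called between fasted genotypes and 5 on refeeding of LKO mice, in place of 3 and 4. In bulk liver, fewer cells of a type and less RNA per cell cannot be told apart.

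Set per kilobase of the gene lengths the authors deposited, the receptors spanned the range from near the top of the liver transcriptome to none. In fasted control livers Hnf4a stood highest at 142 ± 29.0 CPM per kilobase (SD, n = 4), followed by Rxra at 118 ± 11.4. Their places lay above 97.3% and 96.8% of the genes tested. Nr0b2, which encodes the ligand-free repressor SHP, followed at 76.4 ± 28.5 CPM per kilobase, then the bile acid receptor gene Nr1h4 (FXR) at 66.0 ± 6.75 and the oxysterol receptor gene Nr1h3 (LXR alpha) at 64.2 ± 4.83. Next came Nr2f6 at 42.4 ± 1.82 CPM per kilobase and Nr1i2, the xenobiotic receptor PXR, at 40.1 ± 9.64. Below these, 6 receptors lay between 9.02 and 21.9 CPM per kilobase: in falling order Nr1h2, Nr1i3, Esrra, Rxrb, Ppara and Rara.

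Among neighbours in this order the ranges of the 4 fasted control libraries separated at 8 places only. The ranges parted below Rxra, Nr1h3, Nr1i2, Rara, Rxrg, Ppard, Nr4a2 and Rarb, so Hnf4a was not set apart from Rxra, nor Nr0b2 from Nr1h4 and Nr1h3. Nuclear receptors of low level in whole liver included Esr1, the estrogen receptor, at 0.67 ± 0.171 CPM per kilobase, Nr6a1 at 0.569 ± 0.0552 and Rarb at 0.0549 ± 0.0357. Hnf4g and Vdr, the vitamin D receptor, did not pass the filter on low counts and were not tested. Vdr had 0 counts in 12 of the 16 libraries, including all 4 fasted control libraries, in which 3 counts correspond to 0.149 to 0.190 CPM. Its highest count was 8, in the fasted LKO library S44 (0.399 CPM). Hnf4g had between 0 and 4 counts.

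**Figure D1:**
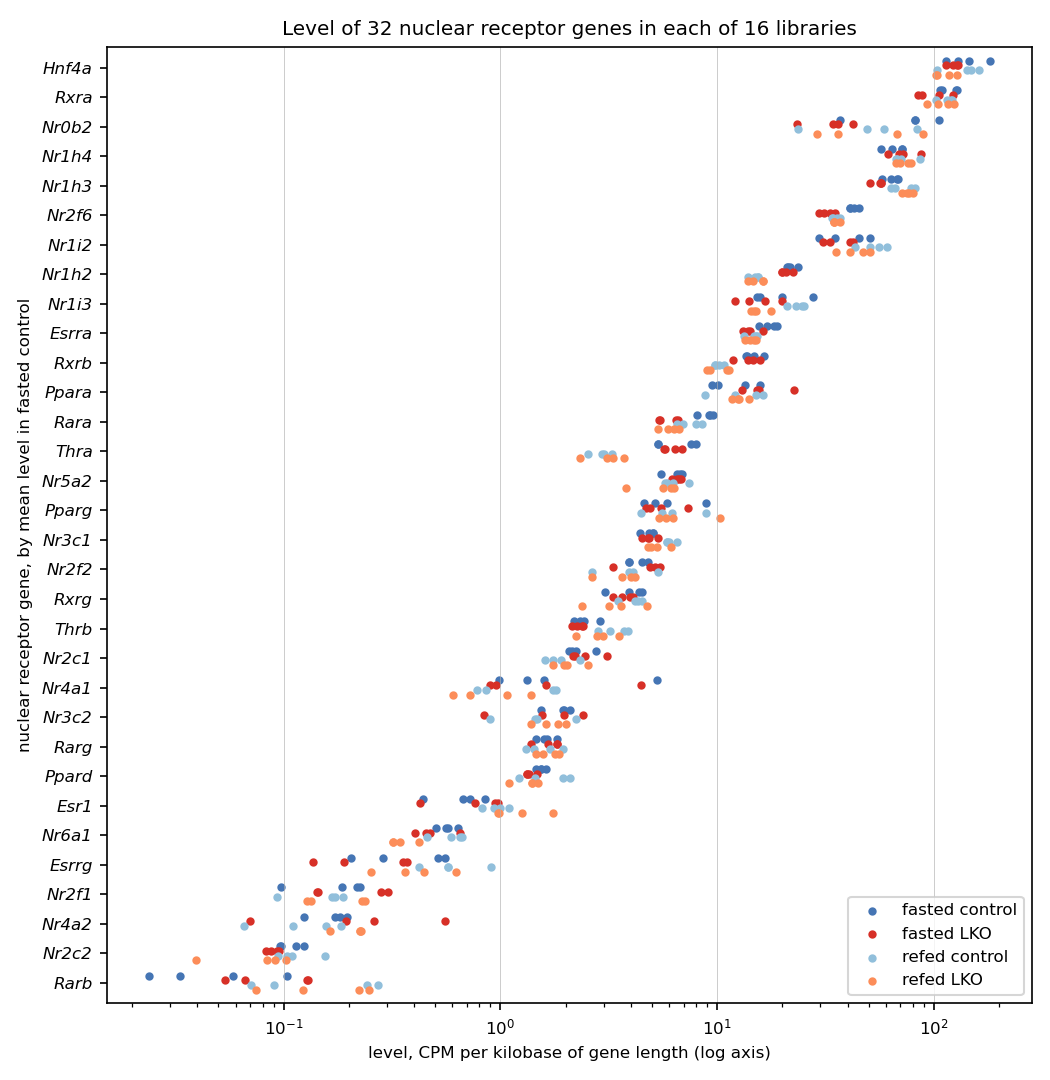
Level of each receptor in CPM per kilobase of gene length on a log axis, with points for single libraries coloured by group and receptors in the order of their mean in fasted control livers. Hnf4a and Rxra sit highest at 142 and 118 CPM per kilobase, Rarb lies lowest among the receptors tested, and for most receptors the points of the 4 groups lie on top of each other.

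Replicate spread differed widely between receptors. The median within-group coefficient of variation was 15.9% for the 32 receptors tested and 16.0% for all genes tested. Nr2f6 varied least, at 4.90%, and Nr1h2 stood at 6.05%, so small differences in these genes exceed their spread. The NR4A genes are immediate-early genes induced by stress and hormonal signals. Nr4a1 had the highest value, 67.1%, since it stood at 18.5 CPM in the fasted control library S43 and 15.7 CPM in the fasted LKO library S47, while no other library was above 6.31 CPM. Rarb, Nr4a2, Nr0b2 and Esrrg followed, with 55.1%, 44.7%, 40.9% and 40.1%.

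Refeeding of control mice was the comparison with the most receptor calls, 7 of 32 (21.9%), where 15.4% of all genes tested were called, 7.79% higher and 7.65% lower. The thyroid hormone receptor gene Thra, the oxysterol receptor gene Nr1h2 (LXR beta), the RXR gene Rxrb and the orphan receptors Nr2f6 and Esrra fell. The thyroid hormone receptor gene Thrb and the glucocorticoid receptor gene Nr3c1 rose. In LKO mice 4 of 32 receptors (12.5%) were called against 18.1% of all genes, 9.28% higher and 8.78% lower: Thra, Nr1h2 and Rxrb fell again, and Nr1h3 rose. The receptors called in both refeeding comparisons were these 3 (Thra, Nr1h2 and Rxrb), all 3 lower after refeeding in both genotypes. The share of all genes called in both was not computed, so this count cannot be read as more or fewer than for genes at large. Over all 32 receptors the median log2 change was -0.02 in control and -0.01 in LKO mice, beside 0.01 and -0.02 over all genes, and the median size of the change was 0.26 in both, beside 0.24 and 0.23. Without S40, S43 or S50 the count in control mice was 4. Thra, Nr1h2 and Rxrb kept their call in control mice, and all 4 receptors in LKO mice, when any 1 library was left out.

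The 2 thyroid hormone receptors moved in opposite directions in control mice. Thra (chromosome 11, 98631464 to 98659832, plus strand) was measured in fasted control livers at 35.2, 24.5, 24.5 and 37.1 CPM and at 11.8, 13.9, 13.7 and 15.1 CPM in the refed control libraries. In LKO mice it was at 26.5, 29.6, 26.2 and 31.7 CPM fasted and at 10.8, 14.3, 17.2 and 15.2 CPM refed. Every refed library thus lay below every fasted one in both genotypes, and the log2 changes were -1.16 (SE 0.15, adjusted p = 3.9e-04) and -0.99 (SE 0.15, adjusted p = 4.64e-04). Thra overlaps the clock receptor gene Nr1d1, on the other strand, by 1075 bases. The libraries were made with dUTP, which marks strand, but whether counting used it is not given in the sources used here. Nr1d1 fell too, from a mean of 152 to 31.1 CPM in control (log2 change -2.29, adjusted p = 7.2e-04) and from 168 to 40.6 CPM in LKO livers (log2 change -2.05, adjusted p = 6.27e-04). An unnamed long noncoding RNA gene also overlaps Thra, by 1374 bases on the same strand, where counting by strand would not separate their reads. It averaged 4.90 CPM in fasted and 3.35 CPM in refed control livers (log2 change -0.55, adjusted p = 0.0378). In LKO mice it was not called on refeeding (log2 difference -0.34, adjusted p = 0.185). The part of either gene in the Thra counts was not tested, and the clock hour of necropsy in each group is not given in the sources used here.

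Thrb encodes the thyroid hormone receptor that predominates in liver. It was at 16.1, 21.4, 17.3 and 18.0 CPM in fasted control and at 27.5, 20.9, 28.6 and 23.7 CPM in refed control libraries, where only the library S49 (20.9) reached into the fasted range. Its log2 change was 0.47 (SE 0.13, adjusted p = 0.0231). Without S40, S42, S43, S48 or S50 the adjusted p was 0.0808, 0.0555, 0.0551, 0.0679 or 0.0816. The LKO libraries stood at 15.9, 17.8, 17.6 and 16.8 CPM fasted and at 26.0, 16.6, 21.9 and 20.7 CPM refed (log2 difference 0.33, SE 0.13, adjusted p = 0.095), a range that overlapped through S53 (16.6), without which the adjusted p was 0.0297.

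Per kilobase, Thra stood above Thrb in all 8 fasted libraries, with ratios of 1.84 to 3.49 in control and 2.39 to 3.03 in LKO livers. After refeeding the ratio ran from 0.685 to 1.06 in control and from 0.666 to 1.38 in LKO livers. The log2 change of the ratio was -1.60 in control and -1.31 in LKO mice, with no overlap in either (exact two-sided permutation p = 0.0286, adjusted p = 0.1 over 28 such tests of 7 receptor ratios). An adjusted p of 0.1 was the lowest value among those 28 tests, and none of the ratios passed the threshold. The exact p of 0.0286 was the smallest these group sizes allow, and the 8 tests without overlap all stood at it. At that value, passing depended on how many of the 28 tests reached it and not on the size of a change. The adjusted p therefore could not decide whether a single ratio changed.

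Rxrb (chromosome 17, 34250786 to 34257373, plus strand) is the second RXR of the liver and a heterodimer partner of the receptors named above. It was at 65.7, 54.5, 58.6 and 54.2 CPM in fasted control and 38.8, 38.9, 42.99 and 40.5 CPM in refed control livers. LKO libraries had 58.0, 55.04, 62.4 and 46.9 CPM fasted and 35.8, 44.1, 45.1 and 37.0 CPM refed. The fasted and refed libraries did not overlap in either genotype, and Rxrb fell by 0.53 (SE 0.10, adjusted p = 0.00297) and by 0.46 (SE 0.10, adjusted p = 0.00466) on the log2 scale. Rxra, between 534 and 810 CPM in the 16 libraries, was not called in any comparison, with log2 differences of -0.04 (SE 0.12) on refeeding of control and 0.13 (SE 0.12) on refeeding of LKO mice. The mean ratio of Rxra to Rxrb per kilobase was 8.11 fasted and 11.3 refed in control and 7.15 and 10.7 in LKO livers, without overlap (exact permutation p = 0.0286 in each, adjusted p = 0.1). The third member, Rxrg, lay between 5.49 and 10.9 CPM in all 16 libraries and was not called.

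The oxysterol receptors, which control cholesterol efflux and lipogenic genes, went opposite ways on refeeding of LKO mice. Nr1h2 (chromosome 7, 44199040 to 44203375, minus strand) was at 79.1, 71.3, 72.5 and 70.5 CPM in fasted control and 51.6, 46.7, 50.1 and 51.7 CPM in refed control libraries. In LKO livers it was at 66.6, 66.9, 74.9 and 70.0 CPM fasted and 46.5, 54.8, 54.6 and 48.9 CPM refed. The gap between fasted and refed libraries was wider than either group's range in control mice, and Nr1h2 fell to 0.682 times its fasted level there (log2 -0.55, SE 0.073, adjusted p = 3.71e-04). In LKO mice it fell to 0.736 times that level (log2 -0.44, SE 0.073, adjusted p = 6.47e-04). Nr1h3 rose in LKO mice from 144, 144, 142 and 128 CPM to 193, 202, 189 and 179 CPM (log2 0.45, SE 0.090, adjusted p = 0.00262). Its control libraries stood at 169, 160, 172 and 145 CPM fasted and 196, 205, 160 and 167 CPM refed and overlapped (log2 difference 0.17, SE 0.090, adjusted p = 0.204). That the refeeding change of Nr1h3 differed between genotypes did not pass the test (difference 0.28, SE 0.13, adjusted p = 0.288). Nr1h3 over Nr1h2 per kilobase averaged 2.94 and 2.68 in fasted control and LKO livers and 4.88 and 4.98 after refeeding.

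**Figure D2:**
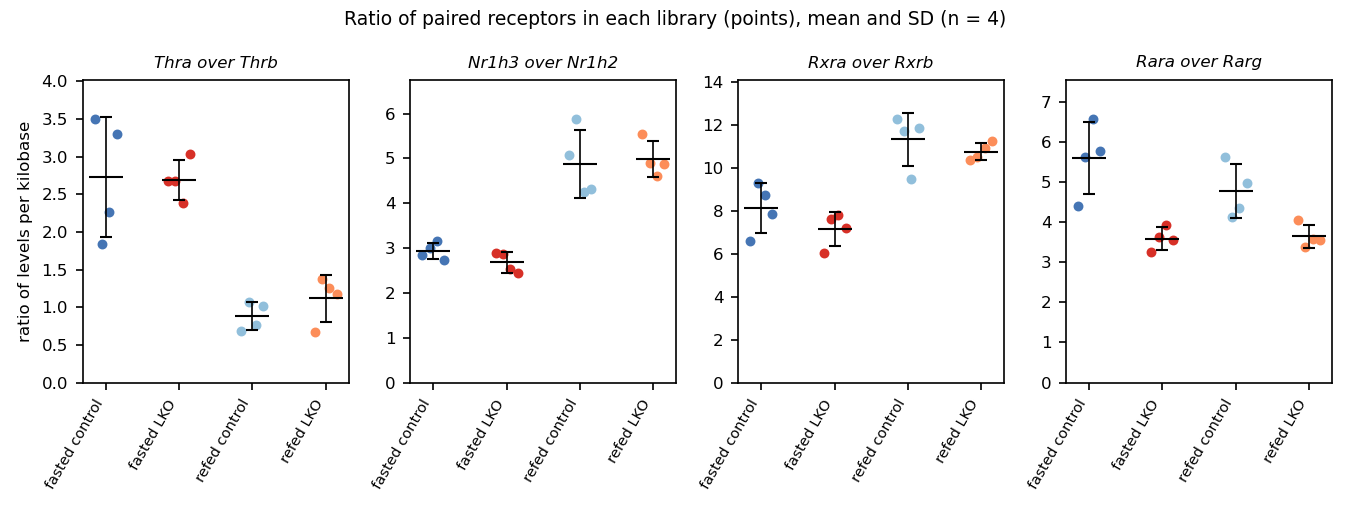
Ratio of paired receptors per kilobase in each library (points), with group mean and SD (n = 4), for Thra over Thrb, Nr1h3 over Nr1h2, Rxra over Rxrb and Rara over Rarg. All but the last ratio separate fasted from refed libraries in both genotypes (means of Thra over Thrb 2.72 and 2.69 fasted, 0.884 and 1.12 refed), and Rara over Rarg separates control from LKO libraries in both states (5.60 against 3.59 fasted, 4.77 against 3.64 refed). Ratios tested but not drawn (Ppara over Pparg, Ppara over Ppard and Nr1i2 over Nr1i3) overlapped in every comparison.

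The upstream sequences of 4 called receptors, 2 that fell on refeeding in both genotypes and 2 that fell in fasted LKO livers, are shown so that their base composition and common motifs can be read beside these values. RefSeq windows on GRCm38.p6 were found for 31 of the 34 receptors, 50 windows in all, and each stretch below is the 250 bases before a gene's start (the most upstream one listed for Rxrb and Rara, which have more than one), in the gene's own direction. Capitals mark exact matches, on either strand, to the RXR-partner core motif AGGTCA, the E-box CACGTG, the GC box GGGCGG or the ETS core CCGGAA, the last searched after the Nr1h2 sequence had been read.
Nr1h2 (chr7:44553966-44554215, minus strand): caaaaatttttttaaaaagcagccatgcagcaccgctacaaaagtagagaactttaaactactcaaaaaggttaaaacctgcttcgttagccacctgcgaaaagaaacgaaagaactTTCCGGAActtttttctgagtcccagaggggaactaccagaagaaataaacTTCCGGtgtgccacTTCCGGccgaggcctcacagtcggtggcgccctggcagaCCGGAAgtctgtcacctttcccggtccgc
Rxrb (chr17:34031562-34031811, plus strand): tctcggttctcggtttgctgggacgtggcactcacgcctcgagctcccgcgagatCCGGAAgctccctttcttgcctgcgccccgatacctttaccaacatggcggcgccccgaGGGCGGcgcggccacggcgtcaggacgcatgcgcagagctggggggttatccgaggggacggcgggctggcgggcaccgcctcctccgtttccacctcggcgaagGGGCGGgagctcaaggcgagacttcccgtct
Rara (chr11:98937446-98937695, plus strand): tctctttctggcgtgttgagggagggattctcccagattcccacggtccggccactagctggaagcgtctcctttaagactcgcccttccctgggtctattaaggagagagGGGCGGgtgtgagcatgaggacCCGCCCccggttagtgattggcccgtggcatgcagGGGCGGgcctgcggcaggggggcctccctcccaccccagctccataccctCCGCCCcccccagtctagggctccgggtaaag
Nr2f6 (chr8:71381953-71382202, minus strand): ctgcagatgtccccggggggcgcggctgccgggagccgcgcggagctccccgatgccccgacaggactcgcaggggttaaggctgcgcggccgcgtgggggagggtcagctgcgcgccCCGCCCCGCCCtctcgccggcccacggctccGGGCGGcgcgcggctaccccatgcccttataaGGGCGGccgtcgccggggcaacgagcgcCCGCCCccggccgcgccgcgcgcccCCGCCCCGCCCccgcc
Nr1h2 upstream sequence held 5 matches to CCGGAA, a palindromic TTCCGGAA counted on both strands, and 0 to the other three motifs, at a GC content of 48.4%. Rxrb held 2 GC boxes and 1 CCGGAA at 69.2% GC, Rara 4 GC boxes at 65.2% GC, and Nr2f6 had 7 GC boxes, some overlapping, at 82.4% GC. None of the 4 stretches held AGGTCA. Of all 32851 RefSeq windows, 14% held AGGTCA in these 250 bases, 6.02% CACGTG, 32.7% GGGCGG and 12% CCGGAA. Among the 50 receptor windows 18%, 8%, 48% and 12% held them. A match is a description of the letters and not evidence of binding.

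Nr3c1, the glucocorticoid receptor that drives gluconeogenic genes in the fast, was at 34.01, 38.9, 37.3 and 38.7 CPM in fasted control and 45.04, 45.3, 49.95 and 46.02 CPM in refed control livers. It rose by 0.32 on the log2 scale (SE 0.084, adjusted p = 0.0168), without overlap, and its adjusted p was 0.0627 without S40 and 0.0582 without S50. LKO libraries stood at 36.8, 37.5, 41.1 and 34.7 CPM fasted and 47.2, 36.8, 38.3 and 40.8 CPM refed (log2 difference 0.12, SE 0.084, adjusted p = 0.354). The related mineralocorticoid receptor gene Nr3c2 lay between 5.47 and 15.6 CPM and was not called. Esr1 ran from 6.01 to 11.6 CPM in fasted control and from 11.2 to 15.01 CPM in refed control livers (log2 difference 0.52, SE 0.25, adjusted p = 0.167, while the authors' deposited table gives Esr1 0.0442). In LKO livers it ran from 5.79 to 13.4 CPM fasted and from 13.3 to 23.9 CPM refed (log2 difference 0.69, SE 0.24, adjusted p = 0.063), and Esr1 was called there by DESeq2 (0.0342), by limma-voom (0.0438) and without S47 (0.0471).

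In fasted livers 3 of 32 receptors (9.38%) were called between genotypes, all 3 lower in LKO, where 6.48% of all genes tested were called lower and 12.2% in either direction. These were the retinoic acid receptor gene Rara, the COUP-TF family repressor Nr2f6 and the estrogen-related receptor Esrra, a regulator of mitochondrial genes that works with PGC-1 coactivators. The groups did not overlap for 4 receptors (12.5% of 32, against 16.9% of all genes): Rara, Nr2f6, Nr1h3 and Nr2c2. The median log2 difference of the 32 receptors was -0.11, beside 0.02 over all genes, and its median size was 0.20 beside 0.21. As given above, the summed hepatocyte markers were also lower in fasted LKO libraries (Fgb and Ttr fell, Tdo2 rose, and the other five of 8 were not called). Most of that sum is Alb, at a mean of 48203 CPM in fasted control and 39508 CPM in fasted LKO livers, while Apoa1 averaged 11046 and 14275 CPM and Apob 2695 and 3059 CPM. The means of the 8 markers thus differed in both directions, and their part in these calls was not tested.

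Rara (chromosome 11, 98818644 to 98865768, plus strand) was at 35.1, 40.4, 41.6 and 40.3 CPM in fasted control and 23.6, 29.0, 23.8 and 28.2 CPM in fasted LKO libraries. It fell to 0.664 times the control level (log2 -0.59, SE 0.10, adjusted p = 0.0019), and every LKO library lay below every control library. In refed livers Rara was at 34.9, 30.5, 37.1 and 28.4 CPM in control and 25.9, 23.3, 29.1 and 27.7 CPM in LKO libraries, a difference of -0.31 (SE 0.10, adjusted p = 0.114) with overlap at S51 and S54. The genotype differences of the 2 states did not differ by the test (difference 0.28, SE 0.15, adjusted p = 0.347). Rarg lay between 5.57 and 8.32 CPM in all libraries and Rarb at or below 1.43 CPM, and neither was called by edgeR. Rarb had a log2 difference of 1.58 (SE 0.55, adjusted p = 0.0622) on refeeding of control mice, from 0.126 to 0.546 CPM fasted and 0.372 to 1.43 CPM refed. Its adjusted p there was 0.0422 in DESeq2, 0.0368 without S49 and 0.0424 without S51. The gene Top2b overlaps Rarb by 4624 bases on the other strand. Top2b averaged 20.6 CPM in fasted control and 24.1 CPM in refed control livers (log2 difference 0.23, adjusted p = 0.292 by edgeR). Its part in the low Rarb counts was not tested. Rara over Rarg per kilobase averaged 5.60 in fasted control and 3.59 in fasted LKO livers, and 4.77 and 3.64 in refed livers, without overlap in either state (exact permutation p = 0.0286 in each, adjusted p = 0.1).

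Nr2f6 (chromosome 8, 71826767 to 71834604, minus strand) had the narrowest groups of all receptors. Its levels were 123, 127, 123 and 134 CPM in fasted control and 93.1, 98.5, 87.8 and 104 CPM in fasted LKO libraries, a fall to 0.757 times the control level (log2 -0.40, SE 0.068, adjusted p = 0.00156). Refed control libraries stood at 110, 102, 106 and 101 CPM and refed LKO libraries at 103, 104, 110 and 104 CPM, with a log2 difference of 0.00 (SE 0.068). On refeeding it fell by 0.27 in control (SE 0.068, adjusted p = 0.0145, without overlap; adjusted p = 0.0507 without S43 and 0.0505 with no filter on low counts). In LKO mice the refed libraries lay 0.13 above the fasted ones (SE 0.068, adjusted p = 0.196). The difference between these effects was 0.41 (SE 0.097) with an adjusted p of 0.0609 in edgeR, and 0.0014 in DESeq2, 0.0429 among genes with a mean of at least 5 CPM and 0.0493 without S47. Nr2f6 overlaps Ocel1 on the other strand by 5239 bases, and Ocel1 was not called in any of the 4 group comparisons.

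Esrra was at 83.2, 74.9, 68.7 and 80.5 CPM in fasted control and 61.4, 72.0, 62.8 and 58.1 CPM in fasted LKO livers, with the LKO library S45 (72.0) inside the control range. The fall of 0.27 (SE 0.082, adjusted p = 0.0377) lost its call without S40, S41, S43, S44, S46 or S47, with adjusted p = 0.112, 0.0629, 0.0962, 0.0994, 0.0838 or 0.0941. Refed control libraries had 65.5, 66.5, 58.9 and 67.7 CPM, below every fasted control library (log2 -0.25, SE 0.082, adjusted p = 0.0483). That call was lost without any 1 of S40, S41, S43, S48, S49, S50 and S51, with adjusted p from 0.0504 to 0.15. It was also lost with no filter on low counts (0.0771 fasted, 0.111 on refeeding) and with only the groups compared in the fit (0.102 and 0.0769). Refed LKO livers had 66.5, 59.5, 65.1 and 62.6 CPM. Esrra and Trmt112 overlap by 73 bases on opposite strands, and Trmt112 fell on refeeding of control mice too (log2 -0.26, adjusted p = 0.0206).

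Nr0b2 encodes SHP, which FXR induces and which represses bile acid synthesis. Its fasted control libraries were at 41.8, 119, 92.9 and 92.3 CPM and its fasted LKO libraries at 40.7, 26.4, 38.6 and 48.05 CPM. S40 (41.8) lay inside the LKO range and the other three control libraries lay above it. The log2 difference of -1.17 (SE 0.39, adjusted p = 0.0622) missed the threshold in edgeR, while the adjusted p was 0.0339 without S40 and 0.031 with only the fasted libraries in the fit. In the authors' deposited table the adjusted p of Nr0b2 in this comparison is 5.1e-04. Refed libraries spread from 26.7 to 95.1 CPM in control and from 32.6 to 101 CPM in LKO livers.

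In refed livers 1 of 32 receptors (3.12%) was called between genotypes, lower in LKO, beside 3.63% of all genes tested and 1.35% called lower. Nr6a1 (chromosome 2, 38613382 to 38817700, minus strand), an orphan receptor best known from germ cells and early embryos, was at 6.39, 4.94, 7.16 and 7.06 CPM in refed control and 3.74, 3.47, 3.46 and 4.55 CPM in refed LKO livers. All 4 LKO libraries lay below all 4 control libraries, and Nr6a1 fell by 0.74 (SE 0.17, adjusted p = 0.0224). Leaving out S48, S50, S53 or S54 gave adjusted p = 0.0594, 0.0657, 0.064 or 0.0633, so 0 receptors were then called. The antisense gene Nr6a1os, which it overlaps by 29114 bases, was at 0.0618 CPM or less in every library. Fasted LKO libraries, at 4.39 to 7.06 CPM, overlapped the fasted controls at 5.46 to 6.92 CPM. The refeeding difference of Nr6a1 in LKO mice was -0.49 (SE 0.17, adjusted p = 0.0517), and it was called by DESeq2 (adjusted p = 0.0498), with upper quartile scaling (0.0381), among genes with a mean of at least 5 CPM (0.0351), without S44 (0.0355) and without S55 (0.0414).

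**Figure D3:**
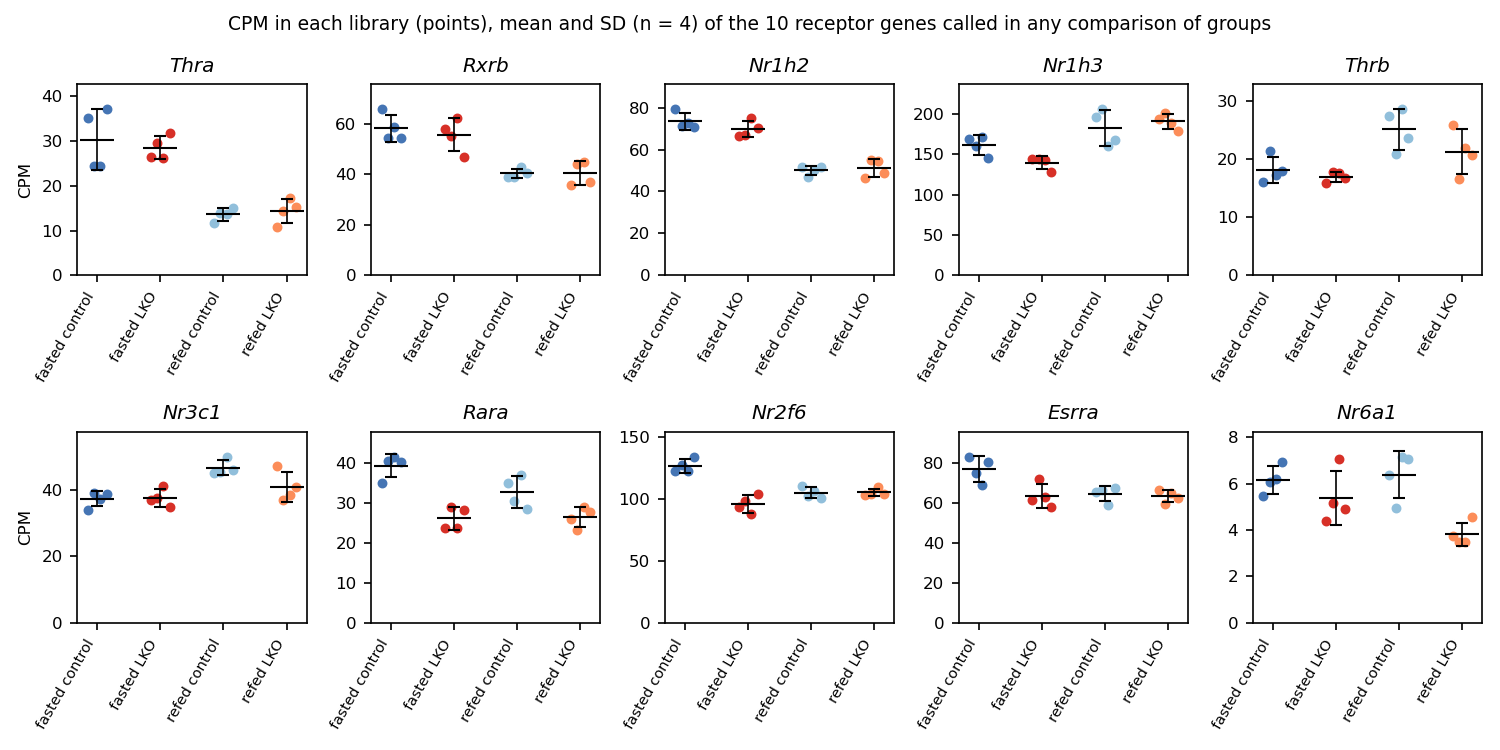
CPM of receptors called in at least 1 of the 4 group comparisons, in a panel each, with a point for every library and group mean and SD (n = 4). Thra, Nr1h2 and Rxrb lie lower in refed than in fasted livers of both genotypes (Nr1h2 mean 73.4 against 50.03 CPM in control), and Rara and Nr2f6 lie lower in fasted LKO than in fasted control livers (39.4 against 26.1 and 126.6 against 95.8 CPM).

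Nr1i3, the constitutive androstane receptor (CAR) that induces drug-metabolising enzymes, was at 109, 92.6, 112 and 102 CPM in refed control and 65.6, 66.6, 78.4 and 63.3 CPM in refed LKO livers. The groups did not overlap, 1 of 2 receptors (6.25% of 32, against 11.7% of all genes) for which this held, the other being Nr6a1. Its log2 difference was -0.60 (SE 0.17, adjusted p = 0.0613) in edgeR, and the adjusted p was 0.0217 in DESeq2 and 0.01 with only the refed libraries in the fit. The authors' own deposited adjusted p for Nr1i3 in refed livers is 2.2e-06. Fasted libraries stood at 67.5, 122, 88.1 and 70.0 CPM in control and 62.0, 88.0, 73.8 and 53.3 CPM in LKO livers and overlapped (log2 difference -0.33, SE 0.17, adjusted p = 0.236). Its paralogue Nr1i2 was not called, with 111 to 155 CPM in refed control and 90.7 to 130 CPM in refed LKO libraries.

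The fatty acid receptors were not called in any comparison by edgeR. Ppara, which drives fatty acid oxidation and ketogenesis in the fasted liver, was at 36.4, 60.6, 51.8 and 38.9 CPM in fasted control and 59.7, 58.6, 87.3 and 49.8 CPM in fasted LKO livers. The ranges overlapped, with a log2 difference of 0.45 (SE 0.20; adjusted p = 0.161). Refed libraries were at 33.8 to 62.2 CPM in control and 44.8 to 53.6 CPM in LKO livers (log2 difference -0.04, SE 0.20, adjusted p = 0.945). Pparg, the adipogenic receptor that also rises in fatty liver, ran from 13.2 to 30.5 CPM over all 16 libraries, and Ppard ran from 8.27 to 15.8 CPM.

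Hnf4a and Nr1h4 were not called in any comparison. Hnf4a means were 688 ± 140 and 595 ± 35.1 CPM in fasted control and LKO livers and 672 ± 122 and 544 ± 58.6 CPM in refed ones (SD, n = 4), and its log2 difference between genotypes was -0.21 (SE 0.15, adjusted p = 0.394) fasted and -0.30 (SE 0.15, adjusted p = 0.277) refed. Nr1h4 means lay between 152 and 168 CPM in the 4 groups, and every difference was 0.14 or less on the log2 scale. Nr5a2 (LRH-1), which supports bile acid synthesis, lay between 22.4 and 43.9 CPM. Of the 32 receptors tested, 10 were called in at least 1 group comparison and 22 in none, and 19 had all 4 group differences under 0.5 on the log2 scale. The matching shares of all genes were not computed, so these counts cannot be read as more or fewer than for genes at large. The NR2 genes Nr2c1, Nr2c2, Nr2f1 and Nr2f2 and the ERR gene Esrrg were among those not called. Nr2c2, the testicular receptor TR4, was at 1.44 to 1.85 CPM in fasted control and 1.23 to 1.41 CPM in fasted LKO libraries without overlap (log2 difference -0.27, SE 0.25, adjusted p = 0.553). The gene Mrps25 overlaps Nr2c2 by 4770 bases on the other strand. Mrps25 averaged 14.9 CPM in fasted control and 12.8 CPM in fasted LKO livers (log2 difference -0.22, adjusted p = 0.211 by edgeR). Its part in the Nr2c2 counts was not tested.

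**Figure D4:**
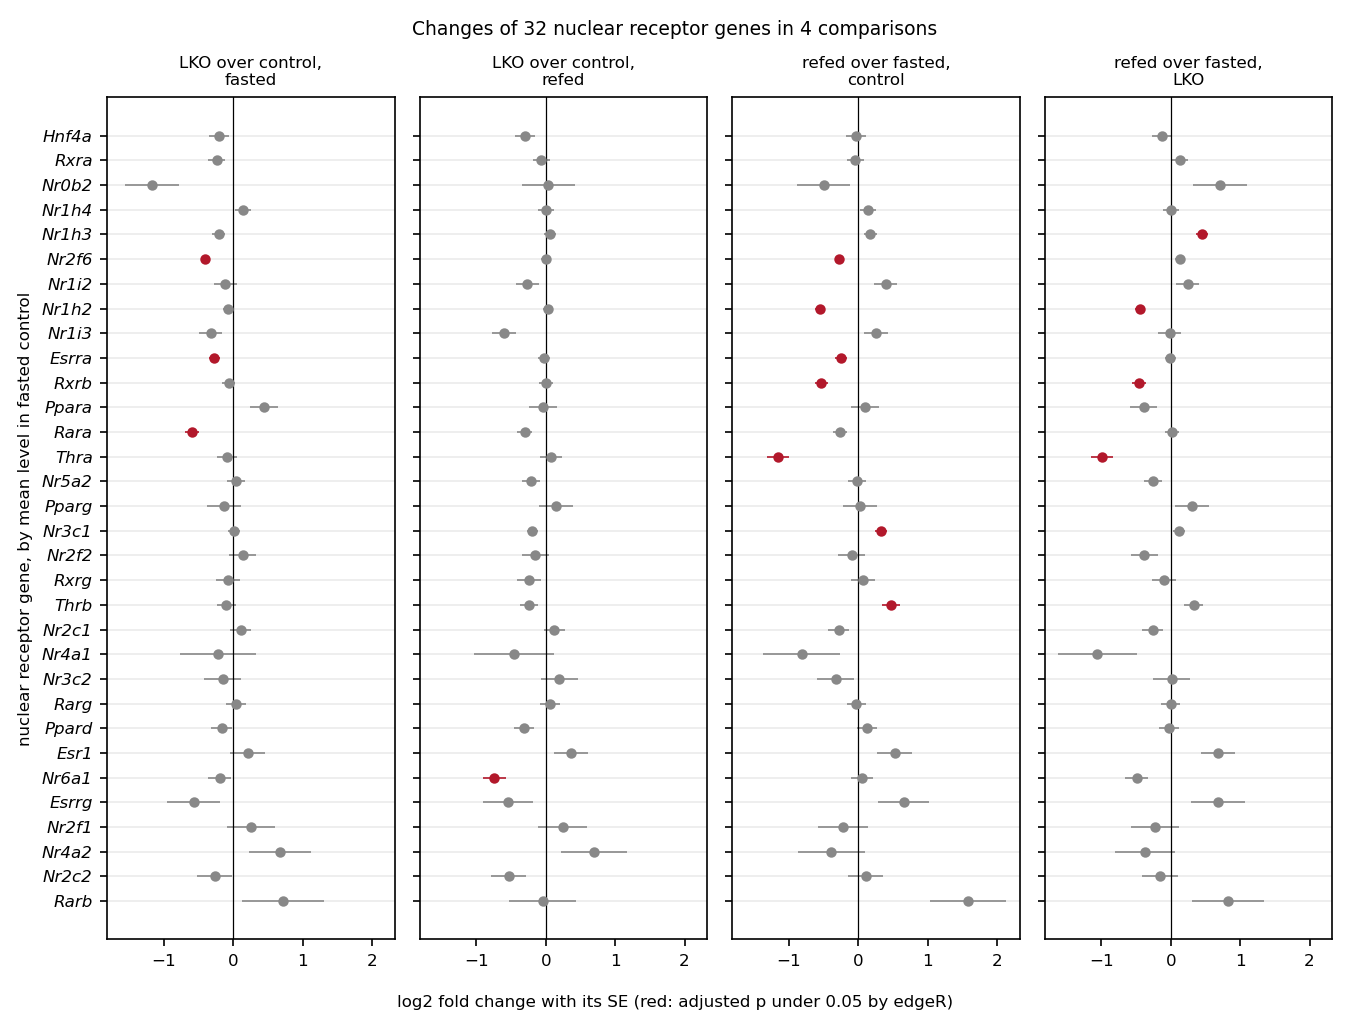
Log2 fold change with its SE of the receptors tested in the 4 group comparisons, from edgeR. Red points mark adjusted p under 0.05 (3, 1, 7 and 4 receptors in fasted, refed, refeeding in control and refeeding in LKO), and most grey points lie within 0.5 of 0.

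Whether the genotype difference itself changed between states was tested for each receptor. By edgeR 0 of 32 receptors were called, 5 had an unadjusted p under 0.05 (Nr2f6, Nr6a1, Nr0b2, Nr1h3 and Esrra), and 0.538% of all genes tested were called, with 16.5% at an unadjusted p under 0.05. DESeq2 called 1, Nr2f6, and limma-voom called 0. The genotype comparisons and the refeeding comparisons share libraries, so the values of a receptor across them are given side by side and were not correlated.

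The coregulators that receptors recruit were followed as a list of 16 genes, all tested. In fasted LKO against fasted control livers the corepressors Ncor1 (log2 0.60, SE 0.11) and Nrip1 (log2 0.61, SE 0.16) rose, and 14 were not called (12.5% called, beside 12.2% of all genes). A fit of only these 2 groups left 1 of these calls. Ncor1 was at 37.5, 53.8, 47.96 and 49.4 CPM in fasted control and at 76.9, 63.1, 76.5 and 69.0 CPM in fasted LKO livers. Every LKO library lay above every control library (adjusted p = 0.0021), and the call held when any 1 library was left out. On refeeding of control mice 4 rose and 0 fell: the acetyltransferases Crebbp and Ep300, the corepressor subunit Tbl1x, and Nrip1. Crebbp, Ep300 and Tbl1x held without any 1 library, while Nrip1 was lost without any of the 8 libraries but S43 (adjusted p up to 0.118). Those 4 of 16 (25%) stand beside 15.4% of all genes and 7.79% called higher. In LKO mice 4 were called again (25%, beside 18.1% of all genes): Tbl1x (log2 0.44, SE 0.11) rose and Ncor1 (log2 -0.48, SE 0.11), Nrip1 and Ppargc1b (PGC-1 beta) fell on refeeding. Of these Nrip1 was lost without S44 or S53 (adjusted p up to 0.0621) and Ppargc1b without S44 or S55 (up to 0.0872). Between refed genotypes 15 of 16 coregulators had a log2 difference below 0 (median log2 difference -0.21, beside -0.01 over all genes). Crebbp was called lower there (log2 -0.34, SE 0.08, adjusted p = 0.0283), a call lost without any 1 of 7 of the 8 libraries (adjusted p up to 0.0812).

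Nrip1, which encodes the corepressor RIP140, was the 1 coregulator called in the test of the genotype difference between states. Its 4 group means were 5.92 ± 1.25 CPM for control and 9.05 ± 1.57 for LKO livers in the fast, and after refeeding 8.33 ± 0.732 for control and 6.07 ± 0.651 for LKO livers (SD, n = 4). The mean was thus higher in LKO livers after the fast and lower in LKO livers after refeeding, with a difference between the 2 effects of -1.06 (SE 0.22, adjusted p = 0.043). The call was lost without any 1 of 12 libraries, the exceptions being S43, S45, S46 and S49, with adjusted p up to 0.0847. The rise of Nrip1 in fasted LKO livers was lost without S41, S42 or S44 (adjusted p up to 0.0667).

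Genes known as targets of these receptors were followed as lists. Of 17 PPARA targets, 14 rose and 0 fell in fasted LKO against fasted control livers (82.4% called, beside 12.2% of all genes and 5.75% called higher), with a median log2 difference of 0.76 beside 0.02 over all genes. Ehhadh, a peroxisomal enzyme of fatty acid oxidation, was at 342, 404, 422 and 333 CPM in fasted control and at 4327, 1092, 4890 and 1445 CPM in fasted LKO libraries (log2 2.97, SE 0.41, adjusted p = 3.9e-04). Single libraries left out gave 11 to 15 called. Among refed livers 4 of 17 rose in LKO (Ehhadh, Cyp4a10, Cyp4a14 and Acadm; 23.5% called, beside 3.63% of all genes and 2.28% called higher), with a median of 0.53 beside -0.01. The count was 6 with no filter on low counts, 6 with upper quartile scaling and 8 with DESeq2. Cyp4a14, a fatty acid hydroxylase, was lost there without S48, S51, S53, S54 or S55 (adjusted p up to 0.103). On refeeding 0 were called in control mice by edgeR (15.4% of all genes), with 7 of 17 at an unadjusted p under 0.05 (30.0% of all genes). There 3 were called lower by DESeq2, 1 by limma-voom and 4 without S51. In LKO mice 10 fell (58.8%, beside 8.78% of all genes called lower; median -0.53 beside -0.02), and 6 without S52. Ppara itself was not called in any of these comparisons, as given above.

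Across the 16 libraries, with each group's mean removed from log2(CPM + 0.5), Ppara and Ehhadh had a Pearson r of 0.56 (permutation p = 0.0097, adjusted p = 0.078 over 8 receptor and target pairs) and a Spearman rho of 0.65 (permutation p = 0.0032, adjusted p = 0.026). Without the 2 libraries farthest from the median of Ppara, r was 0.42. Nr0b2 and Cyp7a1, the rate-limiting enzyme of bile acid synthesis that SHP represses, had r = -0.47 (permutation p = 0.071, adjusted p = 0.28) and rho = -0.52 (permutation p = 0.038, adjusted p = 0.15), and r was -0.45 without the 2 outermost libraries. For the other six pairs the adjusted p of r was 0.41 or more. Points of 1 library share its depth and its RNA.

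Among 10 LXR targets, Srebf1, the lipogenic transcription factor gene that insulin also induces, fell in fasted LKO livers (log2 -2.25, SE 0.28, adjusted p = 2.4e-04) and the other nine were not called. Srebf1 was at 197, 146, 174 and 208 CPM in fasted control and 36.4, 45.9, 35.1 and 34.6 CPM in fasted LKO livers. It rose on refeeding of LKO mice (log2 2.61, SE 0.28, adjusted p = 3.3e-05) and of control mice (log2 1.05, SE 0.27, adjusted p = 0.0159, or 0.0615 without S48). Lpcat3, a phospholipid-remodelling enzyme, fell on refeeding of LKO mice (log2 -1.12, SE 0.15, adjusted p = 1.2e-04). The 2 called members of this list (20.0%, beside 18.1% of all genes) thus went opposite ways there. Lpcat3 fell in control mice too (log2 -0.55, SE 0.15, adjusted p = 0.0189, lost without S40, S48, S49 or S50). Among 5 FXR targets tested, the bile phospholipid transporter Abcb4 rose in fasted LKO livers (log2 0.82, SE 0.12, adjusted p = 7.5e-04) and the other 4 were not called. That is 20.0% called, beside 12.2% of all genes, and 4 of the 5 were lower in fasted LKO livers (median -0.29 beside 0.02). Cyp8b1, the enzyme of cholic acid synthesis, rose there as well (log2 1.18, SE 0.29, adjusted p = 0.0145, or 0.0506 without S46), and Cyp7a1 was not called. On refeeding of LKO mice Abcb4 and Cyp8b1 fell (log2 -0.58, SE 0.12 and -1.21, SE 0.29), and both calls held when any 1 library was left out.

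Of 12 CAR and PXR targets, 3 fell and 1 rose in fasted LKO livers (33.3% called, beside 12.2% of all genes, 6.48% lower and 5.75% higher), with a median of -0.32 beside 0.02. Cyp2c29, a drug-metabolising cytochrome, fell in fasted (log2 -1.75, SE 0.34) and in refed LKO livers (log2 -1.68, SE 0.34), and both calls held when any 1 library was left out. Ces2a was lost without S40 or S42 (adjusted p up to 0.0594) and Cyp2c55 without S41, S42, S43, S44 or S46 (up to 0.111). Gadd45b, a stress-response gene, rose (log2 1.73, SE 0.41) and fell on refeeding of LKO mice (log2 -1.72, SE 0.41), and Cyp2b10 was not called in either state. Of 5 thyroid hormone targets, 2 were called between fasted genotypes, beside 12.2% of all genes, and 0 between refed genotypes, beside 3.63%. On refeeding, 2 of the 5 were called in control mice, beside 15.4% of all genes, and 3 in LKO mice, beside 18.1%. The lipogenic gene Thrsp fell in fasted LKO livers (log2 -3.61, SE 0.55) and rose on refeeding of LKO mice (log2 3.70, SE 0.55). Klf9, a Krüppel-like factor, fell on refeeding of LKO mice (log2 -0.83, SE 0.17). Hr, which encodes the corepressor Hairless, rose in fasted LKO livers (log2 1.71, SE 0.50, adjusted p = 0.0347, up to 0.155 without 1 library) and fell on refeeding of LKO mice (log2 -1.47, SE 0.49, adjusted p = 0.0481, up to 0.274 without 1 library), with overlap in both. On refeeding of control mice Thrsp rose (log2 1.76, SE 0.50, adjusted p = 0.0254, lost without S40, S43 or S49) and Klf9 fell (log2 -0.60, SE 0.17, adjusted p = 0.0269, lost without S40, S42, S48 or S49). Of 6 retinoic acid targets, 0 were called between genotypes by edgeR, beside 12.2% of all genes fasted and 3.63% refed. In fasted livers 4 of 6 were lower in LKO (median -0.27 beside 0.02). There 1 had an unadjusted p under 0.05 (26.7% of all genes) and 3 did not overlap (16.9% of all genes). In refed livers 5 of 6 were lower (median -0.29 beside -0.01), with 3 at an unadjusted p under 0.05 (18.4% of all genes) and 1 without overlap (11.7%). With S47 left out in fasted livers, or S51 in refed livers, 2 were called lower. On refeeding, 3 of 6 were called in control mice, beside 15.4% of all genes, and 1 of 6 in LKO mice, beside 18.1%. In control mice the retinoic acid-degrading enzyme Cyp26b1 rose (log2 2.53, SE 0.50) and the retinal reductase Dhrs3 fell (log2 -0.49, SE 0.11). Cyp26a1 rose there too (log2 3.09, SE 0.76), with an adjusted p of 0.0697 without S50. The 1 called in LKO mice was Dhrs3, which fell, a call lost without S45 or S55.

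Among the remaining lists the calls that held when any 1 library was left out were few. Of 12 glucocorticoid targets, G6pc, the glucose-releasing phosphatase, rose on refeeding of control mice (log2 1.49, SE 0.35) and Igfbp1 fell on refeeding of LKO mice (log2 -2.53, SE 0.51). Of 10 HNF4A targets, Mttp, which loads lipoproteins, rose and the glycolytic gene Pklr fell in fasted LKO livers (log2 0.84, SE 0.12 and -1.43, SE 0.19), and Pklr rose on refeeding of LKO mice (log2 1.36, SE 0.19). In fasted livers 8 of these 10 were lower in LKO (median -0.25 beside 0.02), and 3 were called (30.0%, beside 12.2% of all genes). Ttr fell too, a call lost without S44 or S46. There 8 had an unadjusted p under 0.05 (26.7% of all genes) and 5 did not overlap (16.9%). In refed livers 9 were lower in LKO (median -0.21 beside -0.01) and 3 had an unadjusted p under 0.05 (18.4%). Only Pklr was called there, and lost without any 1 of 6 libraries. Of 5 ERR targets tested, Idh3a of the citric acid cycle rose on refeeding of control mice (log2 0.72, SE 0.09) and Mfn2 of mitochondrial fusion fell on refeeding of LKO mice (log2 -0.39, SE 0.10). Of 8 genes of PPARG and fatty liver, the lipid droplet gene Cidec rose in fasted LKO livers (log2 2.20, SE 0.50), and Plin4 was lower in refed LKO than in refed control livers (log2 -1.83, SE 0.36) and fell on refeeding of LKO mice (log2 -2.02, SE 0.36). The adipocyte marker sum ran from 2.50 to 33.1 CPM in refed control and from 0.563 to 3.46 CPM in refed LKO libraries, and its part in the Plin4 values was not tested.

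**Figure D5:**
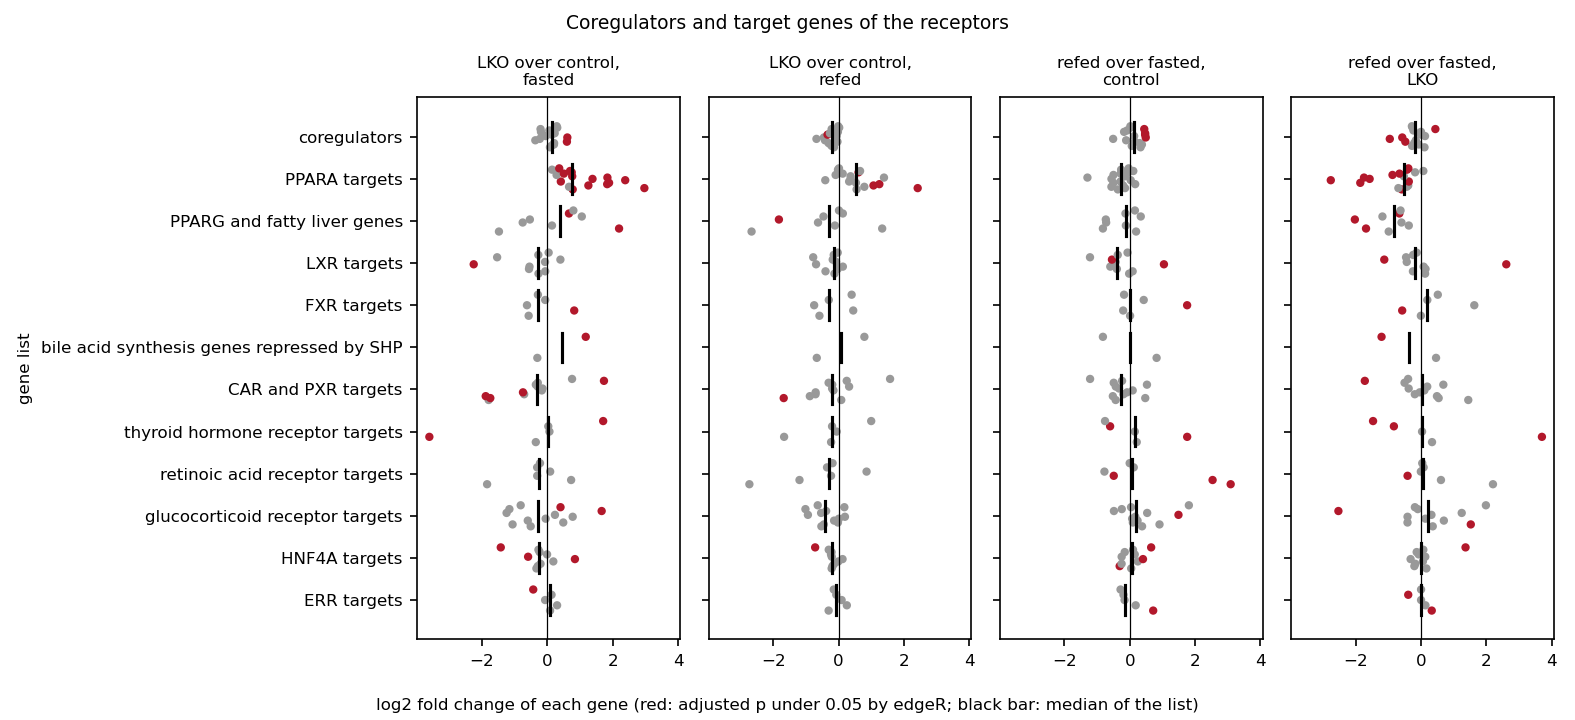
Log2 fold change of each gene in the coregulator and target gene lists in the 4 group comparisons, with red points at an adjusted p under 0.05 by edgeR and a black bar at the list median. The PPARA targets lie to the right in fasted LKO livers (14 of 17 red, median 0.76) and to the left on refeeding of LKO mice (10 of 17 red, median -0.53), and every other list holds 4 red points or fewer in each panel.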

How the data were processed

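Livers were profiled by poly-A RNA sequencing after dUTP library construction, per the labels' protocols. HISAT2 2.0.5 and mm39 are named in the submitters' processing notes, with no role given, and the counting tool and its use of strand are not given in the sources used here. The authors deposited 4 tables of raw read counts per gene, 1 for each pair of groups, with 8 libraries each. The authors also deposited group means of a normalized signal, of which 8 of 8 were recomputed, log2 fold changes, adjusted p-values and gene lengths in bases. Those fold changes and p-values were read only for the comparison named as the authors' own. Left unused were 64 more columns of values by library.

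Count columns, named S40 to S55, match no sample title and carry no replicate number. The group heading shared by the tables that hold a column gave its group: fasted control for S40 to S43, fasted LKO for S44 to S47, refed control for S48 to S51, and refed LKO for S52 to S55. The tables were joined into 25803 genes with 0 counts differing between tables, and genes absent from both tables of a library were set to 0 there (3148 genes, 0 of the receptors).

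In R 4.3.3, edgeR 4.0.16 (filterByExpr, TMM factors of 0.941 to 1.07, glmQLFit, glmQLFTest) was fitted on 14488 genes and 16 libraries with the 4 groups as 1 factor, with Benjamini-Hochberg adjustment over all genes and a threshold of 0.05. The biological coefficient of variation was 0.185. The SE is the fold change divided by the square root of F. DESeq2 1.42.0, limma 3.58.1 (voom), other scalings and filters, fits of only the groups compared and each library left out were alternatives. Applying them to the coregulator and target lists was chosen after seeing the data. The scripts were tested on simulated data. The floor of 3 counts, given in CPM for Vdr, covers counting error only. Receptor ratios used exact permutation tests over libraries, and receptor and target pairs 100000 permutations. Promoters are RefSeq's, on GRCm38.p6, and coordinates of genes are those of the deposited tables, on another build.

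The receptors and all lists were chosen with earlier results of these data known. Any receptor, Cpt1a and any list gene could be named. Nr1d1, Ocel1, Trmt112, Mrps25, Top2b and Tomm40l were named after the overlaps were seen. G6pc and Atp5b are the files' symbols for the listed G6pc1 and Atp5f1b. A further coregulator is not reported here.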

Additional observations from a re-analysis of the deposited data

Results flagged for a closer look

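In 139 groups of 4 libraries (each of the 34 receptors and Cpt1a in each group, without the 1 group whose values were all 0), 7 had a library whose gap to its nearest neighbour divided by the group's range exceeded Dixon's 95% critical value, which chance alone exceeds in about 1 group in 20. Pparg in refed LKO livers was at 30.5 CPM in S54 and between 16.0 and 18.4 CPM in the others. Nr1h3 in fasted LKO livers was at 128 CPM in S47, below 142 to 144 CPM. Nr2f6 in refed LKO livers was at 109.8 CPM in S54, above 103 to 104 CPM. Nr4a1 in fasted control livers was at 18.5 CPM in S43, above 3.48 to 5.60 CPM. Nr4a2 in refed LKO livers was at 0.665 CPM in S52, below 0.910 to 0.927 CPM. Vdr, which was not tested, was at 0.399 CPM (8 counts) in S44 of the fasted LKO group and at 0.130 CPM (3 counts) in S55 of the refed LKO group, with 0 counts in the other libraries of those groups. Nr1h3 and Nr2f6 are called receptors, and their calls on refeeding of LKO mice (Nr1h3) and in fasted LKO livers (Nr2f6) held when any 1 library was left out.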

How the results depend on the processing

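With RLE scaling every count of receptors called was that of the report, with limma-voom 1 of the 5 counts differed (5 in place of 4 on refeeding of LKO mice), and no called value changed sign under any alternative. In refed livers 1 receptor was called between genotypes, and 2 with DESeq2 and 2 with only the refed groups in the fit, which added Nr1i3; leaving out single libraries gave 0 to 1. For the change of the genotype difference between states, 0 became 1 (Nr2f6) with DESeq2 and 1 among genes with a mean of at least 5 CPM, and single libraries left out gave 0 to 1. On refeeding, counts ran from 4 to 7 in control and 4 to 5 in LKO mice, and in fasted livers from 2 to 3, with single libraries left out. DESeq2 called 3 fasted, 8 on refeeding of control (Rarb added) and 6 on refeeding of LKO mice (Esr1 and Nr6a1 added). The authors' deposited results call 3 receptors fasted (Nr0b2 in place of Esrra), 2 refed (Nr1i3 added), 7 on refeeding of control (Esr1 in place of Esrra) and 4 on refeeding of LKO mice. DESeq2 gave 2 receptor results no adjusted p. Upper quartile scaling moved the median of all genes by no more than 0.04 from 0. Receptors under about 1 CPM, such as Rarb and Nr4a2, have few counts, and differences in them were not detectable at this depth unless large. No paired analysis was possible because the count columns carry no replicate number. The causes of these changes were not tested.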
